A study of Mus musculus with 3 samples.

Results

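The thymus sections of 2 *Trp53*-/- (KO) mice and 1 *Trp53*+/+ (WT) mouse were divided into 27 µm squares (bins), and 10475 of the 56744 bins kept were selected as medulla rich in medullary epithelial genes. A UMI (unique molecular identifier) counts 1 captured transcript, and a bin was kept if it held 300 genes or more and if mitochondrial genes made up no more than 30% of its UMIs. A bin was chosen by its neighbourhood of 7 × 7 bins. There, *Aire*, *Krt5*, *Krt14* and *Ccl21a* together had to take at least 2 times the UMI share that they take in all kept bins of the section. In addition, 3 B cell genes (*Cd79a*, *Cd79b* and *Ms4a1*) were not allowed more UMIs than 6 thymus genes (*Psmb11*, *Prss16*, *Ptcra*, *Cd8b1*, *Themis* and *Arpp21*). These medulla bins numbered 2685 of 17425 in the section labelled KO1308 (15.4%, 95% exact binomial interval 14.9 to 15.95), 1798 of 12044 in the section labelled KO1134 (14.9%, 14.3 to 15.6) and 5992 of 27275 in the section labelled WT1101 (22.0%, 21.5 to 22.5). All other kept bins served as the comparison.

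All 3 mice were C57BL/6 females. The labels give both KO mice as *Trp53*-/-, an inherited genotype, and the study describes such KO thymus as pre-neoplastic. Mouse KO1308 was 21 weeks old, and mice KO1134 and WT1101 were 17 weeks old. Each was perfused with cold PBS under pentobarbital, and each gave 1 thymus section on a slide whose barcoded spots lie 4.8 µm apart. With 1 WT section no test between genotypes was made, and genotype cannot be told apart from the mouse, the section or the permeabilisation time, which the methods give as different for WT and KO tissue. Bins of 1 section share a mouse and are not replicates, and a bin can hold several cells or parts of cells.

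The medulla is the inner compartment of the thymus, where T cells that have passed the cortical checkpoints meet self-antigens before export. Its epithelial cells express *Aire*, a transcriptional regulator that lets them transcribe genes of many peripheral tissues, and some of them take on whole programmes of other epithelia and are then called mimetic cells. Thymocytes and the epithelium need each other: RANK ligand, CD40 ligand and lymphotoxin from lymphoid cells act on receptors of medullary epithelial cells through the non-canonical NF-κB pathway. Medullary chemokines draw in positively selected thymocytes and dendritic cells, which share in presenting self-antigens.

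The 3 sections held 21089885 (KO1308), 31237062 (KO1134) and 41581477 (WT1101) UMIs. Of these, 2603566, 4630349 and 5812839 UMIs lay in medulla bins. The median medulla bin had 749 UMIs against 852 in other bins of KO1308, 2529 against 2671 in KO1134, and 824 against 1527 in WT1101. A lower count can mean fewer cells or less RNA per cell, which these data cannot tell apart, so levels are given as counts per 1000000 UMIs of the bins summed (CPM). Mitochondrial genes took a smaller share of UMIs in medulla bins than in other bins of all 3 sections (0.958% against 2.39%, 0.794% against 1.96%, and 0.553% against 0.849%). Some spot barcodes occurred in both slides of a pair (13670 for KO1308 and WT1101, 5572 for both KO slides, 5887 for KO1134 and WT1101). *Trp53* itself had 34.6 CPM (95% exact Poisson interval 27.8 to 42.5; 90 UMIs) in medulla bins of KO1308, 17.7 CPM (14.1 to 22.0; 82 UMIs) in KO1134 and 79.3 CPM (72.2 to 86.9; 461 UMIs) in WT1101. The KO sections thus had fewer *Trp53* transcripts but not 0, and whether their UMIs lie outside the part of the gene that the knockout changes was not tested. These intervals and all those below are for 95% and cover counting error alone.

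Neighbouring bins share most of their windows, so the rule itself places medulla bins in compact groups. Islands, defined as connected groups of at least 30 medulla bins, numbered 10 in KO1308, 2 in KO1134 and 11 in WT1101, and they held 89.3%, 99.6% and 96.4% of the medulla bins. The largest island took up 955 bins (35.6%) in KO1308, 1463 bins (81.4%) in KO1134 and 2918 bins (48.7%) in WT1101. Medulla bins covered 1.96 mm², 1.31 mm² and 4.37 mm². In the upper lobe of KO1308 they ran around a centre of bins that did not qualify. In KO1134 the 2 islands had 1463 and 327 bins, and 144 enriched bins were left out because B cell genes outnumbered thymus genes. KO1308 had 128 such bins and WT1101 had 0. In KO1308 105 medulla bins, and in WT1101 54, lay outside connected tissue of at least 200 bins.

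**Figure D1:**
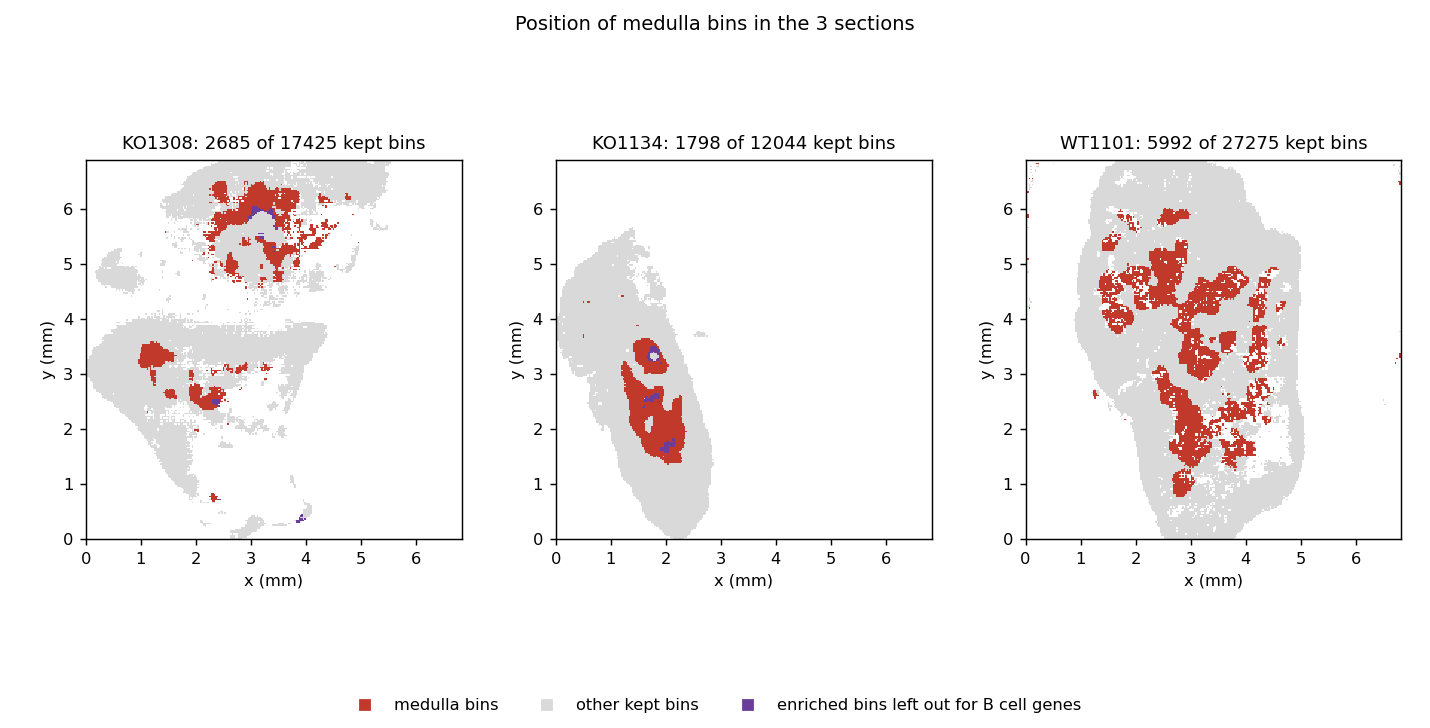
Maps of the 3 sections at one scale (x and y in mm). Red squares are medulla bins, grey squares other kept bins, and purple squares bins enriched for the 4 markers but left out for their B cell genes. Red bins lie in compact groups, which include 81.4% of the medulla bins in the largest group of KO1134 and 35.6% and 48.7% in KO1308 and WT1101.

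The 4 markers chose the bins, so their levels are a description and were not tested. *Aire* (ENSMUSG00000000731; GRCm38 chromosome 10, 78030022 to 78043610) reached 86.0 CPM in medulla bins and 29.0 CPM in other bins of KO1308. The same pair of levels was 72.6 and 9.73 CPM in KO1134 and 54.7 and 2.10 CPM in WT1101. *Krt5* (chromosome 15, 101707070 to 101712898), a keratin of medullary and other basal epithelia, had 649 and 235 CPM in KO1308, 344 and 69.3 CPM in KO1134, and 208 and 29.0 CPM in WT1101. *Krt14* (chromosome 11, 100203162 to 100207548), the partner of keratin 5, had 162 and 41.5 CPM, 157 and 14.97 CPM, and 132 and 9.61 CPM. *Ccl21a* (chromosome 4, 42772860 to 42773993), whose product attracts CCR7-bearing cells, had 960 and 224 CPM, 1514 and 335 CPM, and 525 and 27.1 CPM. Reads of *Ccl21a* may be shared with its near-identical copies. In medulla bins all 4 markers were lowest in WT1101, and in other bins too.

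Together the markers made up 1857 CPM of medulla bins in KO1308, 2087 CPM in KO1134 and 919 CPM in WT1101, against 529, 429 and 67.9 CPM in other bins. Medulla bins therefore exceeded other bins 3.51-fold, 4.87-fold and 13.5-fold. *Ccl21a* supplied 51.7%, 72.5% and 57.1% of these marker UMIs, and *Aire* 4.63%, 3.48% and 5.95%. Because the rule reads a neighbourhood, 29.5% of the medulla bins of KO1308, 5.39% of KO1134 and 53.4% of WT1101 contained none of the 4 transcripts themselves. When the bin itself was left out of its window, the level of *Aire* in the selected bins was 2.68-fold, 7.001-fold and 21.9-fold that of the others. The surrounding bins were chosen by *Aire* among the markers, so this too is a description.

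Depth affected how often a transcript was seen. After each bin was thinned to 500 UMIs, *Aire* was found in 4.16% (3.33 to 5.12) of 2044 medulla bins of KO1308, 3.23% (2.46 to 4.15) of 1798 in KO1134 and 3.04% (2.57 to 3.57) of 4673 in WT1101. In other bins these shares were 1.52%, 0.55% and 0.11%. Without thinning, 6.82%, 13.7% and 4.71% of the medulla bins had *Aire*. Thinning left out 641 medulla bins of KO1308 and 1319 of WT1101 that were too shallow. *Krt5* was seen in 16.2% of the 142 thinned bins with *Aire* in WT1101 and in 9.91% of those without, in 29.4% and 25.7% in KO1308, and in 15.5% and 14.1% in KO1134. Both genes chose the bins, so these shares are a description.

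Bins just outside and just inside the threshold had these levels. In KO1308, 817 bins at 1.8 to 2 times the section's share had 1390 CPM of the markers and 7613 CPM of MHC class II genes, and 663 bins at 2 to 2.2 times had 1498 and 7840 CPM. In KO1134 the 198 bins just outside had 1401 and 7583 CPM, and the 192 bins just inside had 1504 and 9045 CPM. In WT1101 the 396 bins just outside had 309 and 2477 CPM, and the 370 bins just inside had 314 and 2765 CPM. The median medulla bin stood at 2.46, 2.87 and 4.33 times the section's share in the same order.

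To find what else recurred in the medulla, UMIs of medulla bins and of other bins were summed in each section and compared across the 3 pairs, with the section as a block, by edgeR's quasi-likelihood test. Of 18295 genes tested, 2510 (13.7%) were higher in medulla bins and 1922 (10.5%) lower at an adjusted p of 0.05. Of these, 2507 and 1904 moved the same way in all 3 sections, and 1527 and 418 differed at least 2-fold. Without the section labelled KO1308 the test called 1322 genes higher and 533 lower, and without KO1134 it called 1607 genes higher. The 13 genes of the rule and near-copies of *Ccl21a* were left out of every count. In the fold changes below, positive log2 values mean higher in medulla bins, and ± gives the standard error (n = 3 sections).

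The 15 genes at the higher end included several that are known from other tissues. *Crp*, which encodes the acute-phase C-reactive protein of liver, had 6.53, 17.1 and 12.2 CPM in medulla bins of KO1308, KO1134 and WT1101 and 0.820, 1.43 and 0.488 CPM in other bins. Its log2 fold change was 3.70 ± 0.36 (adjusted p = 0.00406). *Sst*, which encodes the hormone somatostatin, had 5.38, 13.0 and 5.68 CPM against 1.33, 0.905 and 0.0861 CPM (3.63 ± 0.63, adjusted p = 0.00978). *Mucl2*, at the head of the list, had 8.07, 16.8 and 9.29 CPM against 2.02, 0.943 and 0.143 CPM (3.79 ± 0.64, adjusted p = 0.00922). For each of these genes all medulla levels lay above all levels elsewhere. The acute-phase genes *Saa1* and *Saa3* followed, with *Alox15* and *Alox12e* (lipoxygenases), *Asprv1* (an epidermal protease), *Spink1* (a trypsin inhibitor), *Serpinb2*, *Clca3a2*, *Slc6a7*, *Wfdc18*, *Reg3g* and the non-coding *Gm29461*, with log2 fold changes from 3.11 to 3.34. *Wfdc18* was the most abundant of them, with 318, 181 and 184 CPM in medulla bins and 93.7, 21.1 and 4.53 CPM in other bins.

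Of the 12 other genes known from medullary epithelium, 9 were higher, 0 were lower and the median log2 fold change was 1.58, beside a median of -0.0053 over all genes tested. *Fezf2*, a second regulator of peripheral-tissue genes, had 35.3, 39.7 and 22.4 CPM in medulla bins against 13.3, 5.66 and 1.46 CPM (2.59 ± 0.42, adjusted p = 0.00808). *Epcam*, an adhesion molecule of epithelia, had 111, 125 and 64.3 CPM against 49.5, 27.8 and 18.6 CPM (1.64 ± 0.19, adjusted p = 0.00412). *Krt17* rose by 1.48 ± 0.19 (adjusted p = 0.00502) and *Spib* by 1.61 ± 0.36 (adjusted p = 0.0202). *Krt8*, a keratin of simple epithelia that cortical epithelium also expresses, did not pass the test, with 242, 267 and 169 CPM against 230, 197 and 173 CPM. *Ly6d* had 197, 111 and 307 CPM against 321, 103 and 636 CPM (-0.64 ± 0.21, adjusted p = 0.0708). Since *Ly6d* and *Krt8* hold much of the list's UMIs, the summed level of the 12 genes was 1.25-fold and 2.10-fold that of other bins in the KO sections but 0.93-fold in WT1101. As a check of the label with genes that the rule did not use, 9 of 12 thus rose and 3 (*Krt8*, *Ly6d* and *Cldn4*) did not pass.

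In the RANK, CD40 and lymphotoxin pathway 11 of 13 tested genes were higher and 0 lower, with a median log2 fold change of 0.89. Among ligands, *Ltb* (lymphotoxin β) had 395, 317 and 256 CPM in medulla bins against 202, 191 and 139 CPM (0.78 ± 0.10, adjusted p = 0.00455). *Tnfsf11*, which encodes RANK ligand, had 21.1, 20.9 and 17.5 CPM against 11.3, 15.8 and 5.68 CPM (0.89 ± 0.24, adjusted p = 0.0367). *Cd40lg* was too sparse to be tested. Among receptors, *Tnfrsf11a* (RANK) had 24.97, 25.3 and 13.4 CPM against 8.52, 5.92 and 1.75 CPM (2.10 ± 0.27, adjusted p = 0.00515). *Cd40* rose by 1.82 ± 0.23 and *Tnfrsf11b*, the decoy receptor osteoprotegerin, also passed. Of the nuclear factors, *Relb* had 115, 107 and 59.9 CPM against 43.7, 34.5 and 12.3 CPM (1.69 ± 0.17, adjusted p = 0.00406), and *Nfkb2* rose by 1.18 ± 0.12. The adaptors *Traf6* (0.01 ± 0.11) and *Traf3* (0.39 ± 0.15) did not pass.

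Genes of mimetic epithelial cells differed by programme. All 4 neuroendocrine genes tested were higher (median log2 fold change 2.90), and 3 others of the list were too sparse to be tested. Without the filter on low counts 5 of 7 were higher. In these lists a sparse gene could pass that filter through its medulla sums alone, so the shares of tested genes partly follow the filter. *Calcb*, which encodes a calcitonin-gene-related peptide, had 26.1, 43.0 and 26.8 CPM against 10.3, 4.86 and 0.947 CPM (2.95 ± 0.56, adjusted p = 0.0125), and the neuroendocrine regulator *Insm1* rose by 2.85 ± 0.61. Of 8 corneocyte genes tested, 5 were higher, among them *Krtdap* (2.89 ± 0.45, adjusted p = 0.00728) and *Calml3*, and 3 of 8 without KO1134. The most abundant, *Krt10*, had 26.1, 22.2 and 21.8 CPM against 21.1, 18.6 and 24.4 CPM. Of 6 tuft cell genes tested, 4 were higher, including *Dclk1* (1.64 ± 0.31) and *Avil* (1.78 ± 0.37), but 1 of 7 tested without KO1308. The tuft regulator *Pou2f3* showed 68.0, 50.5 and 61.6 CPM against 69.4, 56.1 and 56.3 CPM. Of 6 ciliated cell genes, 3 were higher, led by the axonemal motor gene *Dnah5* (2.32 ± 0.47) and the cilium regulator *Foxj1* (1.97 ± 0.42). Of 6 microfold genes tested, *Ccl20* (3.04 ± 0.64, adjusted p = 0.017) and *Tnfaip2* were higher, and *Gp2*, the bacterial uptake receptor of microfold cells, had 40.3, 27.2 and 12.9 CPM against 32.2, 6.98 and 0.201 CPM (adjusted p = 0.101). Without WT1101, 4 of 6 microfold genes were higher. Of 5 muscle genes tested, 0 were higher and *Mylpf* was lower (-0.83 ± 0.15), while 4 were lower without WT1101, and *Mylpf* did not pass without KO1308. Beside these counts for mimetic lists, 13.7% of all genes tested were higher and 10.5% lower.

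Of the epithelial lists, that of secretory and airway genes differed most between the sections in its ratio of medulla to other bins. Of 8 tested, 6 were higher, with a median log2 fold change of 2.23, which became 1.502 without KO1134 and 3.77 without KO1308. Without KO1134 the test called 2 of 10 genes higher, and without KO1308 5 of 7. *Reg3g*, a secreted antibacterial lectin (chromosome 6, 78466269 to 78468872), had 311, 115 and 61.9 CPM in medulla bins against 101, 11.9 and 1.26 CPM (3.16 ± 0.62, adjusted p = 0.014). *Bpifa1*, a secreted protein of the airway lining, had 188, 58.7 and 13.6 CPM against 116, 6.86 and 0.316 CPM (2.38 ± 0.66, adjusted p = 0.0409). *Wfdc2*, another airway gene, had 127, 32.2 and 14.8 CPM against 82.4, 6.45 and 2.78 CPM (1.61 ± 0.34). The 10 genes of the list summed to 699, 259 and 142 CPM in medulla bins, so the medulla exceeded other bins 2.05-fold in KO1308, 8.51-fold in KO1134 and 19.7-fold in WT1101. KO1308 thus had the highest level in the medulla and the lowest ratio to other bins.

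**Figure D2:**
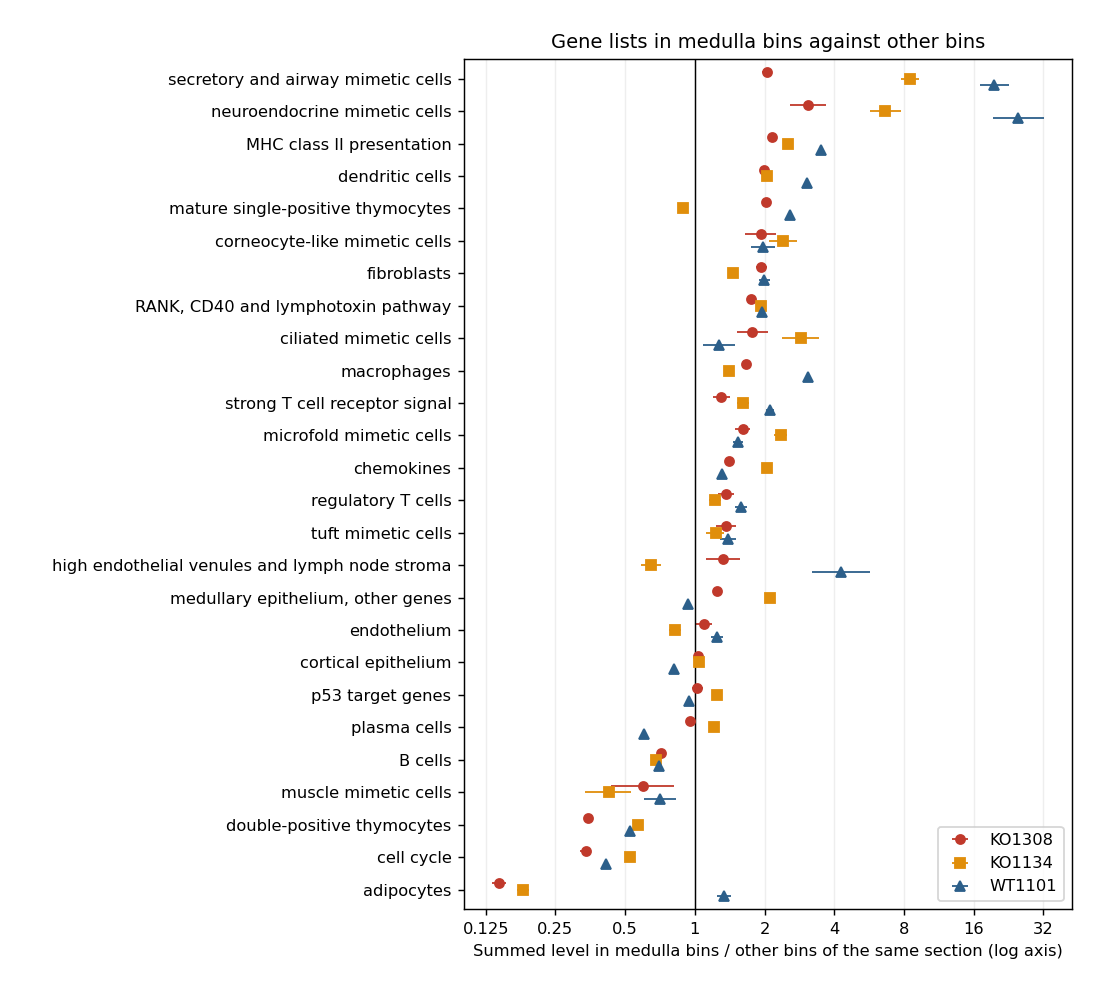
Summed level of each gene list in medulla bins divided by that in other bins of the same section (log axis), with 95% counting intervals. Circles are KO1308, squares KO1134 and triangles WT1101. Secretory, neuroendocrine and MHC class II lists lie to the right of 1 in all 3 sections, and double-positive thymocyte and cell cycle lists to the left, whereas adipocytes lie at 0.143, 0.181 and 1.34.

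Genes of antigen presentation were next. All 8 MHC class II genes tested were higher in medulla bins, with a median log2 fold change of 1.26. *Cd74*, the invariant chain, had 3542, 4232 and 1997 CPM against 1644, 1677 and 554 CPM (1.35 ± 0.15, adjusted p = 0.00406). The α and β chain genes rose alike, with *H2-Aa* at 1506, 1853 and 846 CPM against 707, 725 and 230 CPM, *H2-Ab1* at 1.32 ± 0.13 and *H2-Eb1* at 1.43 ± 0.15. *Ciita*, the master transactivator of these genes, had 42.2, 51.6 and 21.0 CPM against 19.8, 22.3 and 7.29 CPM (1.197 ± 0.13, adjusted p = 0.00406). The peptide-exchange genes *H2-DMa* (0.71 ± 0.09) and *H2-DMb1* (1.02 ± 0.17) rose less.

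Since these genes moved together, their promoters were compared in RefSeq sequences of GRCm38.p6, which held 5 of the 8 genes. The letters CCAAT, read on either strand (ATTGG on the other), form the core of the Y box that class II promoters are known to share. They occurred within 100 bases before the start in 4 of the 6 promoters listed for these 5 genes, and in 18.9% of all 32851 promoters over the same length. The matches are a description of the letters and were not related to binding. The 100 bases before the start of *H2-Aa* (chr17:34287824-34287923, minus strand) and *H2-Eb1* (chr17:34305767-34305866, plus strand) are shown as the α and β chain genes with the most UMIs in that table. Capitals mark the letters searched, 5′ to 3′.
H2-Aa: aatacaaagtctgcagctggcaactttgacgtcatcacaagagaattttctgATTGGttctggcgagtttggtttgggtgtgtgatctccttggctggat
H2-Eb1: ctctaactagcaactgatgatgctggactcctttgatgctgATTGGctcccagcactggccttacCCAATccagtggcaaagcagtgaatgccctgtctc
In *H2-Aa* the match began 48 bases before the start, and in *H2-Eb1* 59 and 35 bases before it.

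Dendritic cell genes rose with them, 9 of 12 being higher and 0 lower (median log2 fold change 1.23). Genes known from activated, migratory dendritic cells led. *Fscn1* (fascin, an actin-bundling protein) had 198, 163 and 120 CPM in medulla bins against 40.6, 22.1 and 6.77 CPM (3.003 ± 0.32, adjusted p = 0.00406). *Ccl22* had 52.6, 43.2 and 80.7 CPM against 10.9, 5.69 and 4.30 CPM (3.09 ± 0.34), and *Ccl17*, which acts on the same receptor, rose by 3.01 ± 0.44. *Cst3*, the most abundant of the list, had 849, 1620 and 964 CPM against 494, 832 and 378 CPM (0.95 ± 0.12). *Xcr1* and *Clec9a*, which mark cross-presenting dendritic cells, and *Siglech* of plasmacytoid cells did not pass, *Xcr1* with 20.0, 30.5 and 24.9 CPM against 14.8, 21.7 and 7.003 CPM.

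Among 11 chemokines, 8 were higher and 2 lower, *Ccl17* and *Ccl22* being counted in both lists. *Ccl5* had 412, 1577 and 340 CPM in medulla bins against 98.4, 391 and 22.2 CPM (2.57 ± 0.37, adjusted p = 0.00625). *Ccl19*, the second ligand of CCR7, had 34.6, 71.7 and 21.3 CPM against 16.7, 23.7 and 2.96 CPM (1.72 ± 0.30). *Cxcl9* rose by 1.98 ± 0.32 and *Cxcl16* by 1.76 ± 0.17. The lower genes were *Ccl25* and *Cxcl12*, products of cortical epithelium that guide immature thymocytes. *Ccl25* had 401, 453 and 490 CPM against 515, 532 and 695 CPM (-0.44 ± 0.10), and *Cxcl12* fell by 0.78 ± 0.13 on the log2 scale.

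Cortical epithelial genes were split, with 2 of 10 higher, 3 lower and a median log2 fold change of -0.20, beside 13.7% higher and 10.5% lower of all genes tested, so that the share of higher genes was near that of all genes. Without KO1308, 1 was higher and 1 lower, and without KO1134 1 was higher. *Tbata* fell by 0.45 ± 0.10 on the log2 scale, together with *Ccl25* and *Cxcl12*. *Il7*, the survival cytokine of thymocytes, was higher instead, with 75.7, 49.2 and 26.5 CPM against 31.4, 18.7 and 11.4 CPM (1.22 ± 0.12, adjusted p = 0.00406), as was *Slc46a2* (0.74 ± 0.15). *Ctsl*, the cathepsin of cortical epithelium, showed 2328, 2113 and 1829 CPM against 2020, 1767 and 2077 CPM. *Prss16* and *Psmb11*, which the rule used, were not tested.

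Immature thymocyte genes were lower in the medulla. Of 11 double-positive thymocyte genes, 8 were lower and 0 higher (median log2 fold change -1.03). *Rag1*, a recombinase of receptor gene assembly, had 81.8, 8.64 and 404 CPM in medulla bins against 319, 34.6 and 693 CPM (-1.58 ± 0.24, adjusted p = 0.00695). *Dntt*, which adds bases at receptor gene joints, had 153, 159 and 569 CPM against 616, 416 and 1211 CPM (-1.56 ± 0.17, adjusted p = 0.00406). *Cd8a* did not pass, being 258 against 670 CPM in KO1308 and 1019 against 1958 CPM in WT1101 but 134 against 116 CPM in KO1134. All 8 cell cycle genes were lower, with a median of -1.33. *Mki67* had 119, 156 and 240 CPM against 330, 303 and 501 CPM (-1.24 ± 0.12, adjusted p = 0.00406), and the mitotic cyclin *Ccnb2* fell by 1.59 ± 0.16 on the log2 scale.

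Genes of mature T cells showed less agreement between sections. Of 10 genes of mature single-positive thymocytes, *Ccr7* and *Itgb7* were higher and 0 were lower (median log2 fold change 0.91), a share near the 13.7% of all genes. Without KO1134 8 were higher, without KO1308 neither *Ccr7* nor *Itgb7* passed, and without WT1101 4 were higher and 1 lower. *Ccr7*, the receptor for CCL21 and CCL19, had 146, 142 and 188 CPM in medulla bins against 33.0, 77.9 and 16.6 CPM (2.08 ± 0.44, adjusted p = 0.0175). The egress receptor gene *S1pr1* had 53.4 and 60.2 CPM against 28.5 and 10.6 CPM in KO1308 and WT1101 but 38.0 against 102 CPM in KO1134. The 10 genes together stood at 2.04-fold, 0.89-fold and 2.57-fold of other bins in KO1308, KO1134 and WT1101. Of 7 regulatory T cell genes, *Tnfrsf4* (OX40; 1.98 ± 0.24), *Tnfrsf9* and *Tnfrsf18* were higher, and *Foxp3* itself had 12.3, 10.4 and 19.4 CPM against 10.03, 5.77 and 9.82 CPM (0.66 ± 0.20, adjusted p = 0.0553). Of 8 genes induced by strong T cell receptor signals, *Gadd45b* (2.11 ± 0.27) and *Nr4a3* (1.32 ± 0.24, adjusted p = 0.0105) were higher, and 4 without KO1134. Over all genes tested 13.7% were higher. *Nr4a1* had 20.0, 32.4 and 110 CPM against 27.3, 28.1 and 32.9 CPM.

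Other cell types that a bin could contain were examined in the same fit. Of 9 B cell genes, 0 were higher and *Ighm* (-0.68 ± 0.10) and *Igkc* (-0.65 ± 0.11) were lower, beside 13.7% higher and 10.5% lower of all genes tested. The median of the list was 0.26 in all sections and -0.41 without WT1101, and the rule itself removed bins rich in B cell genes. Without KO1134, 2 B cell genes were higher. Other bins were also restricted to the thymus area, a region whose windows hold 50% or more of the mean share of the 6 thymus genes. Then 4 of 9 B cell genes were higher with a median of 0.91, as were 4 of 7 endothelial genes with a median of 0.75. Medulla bins were not restricted, and 57.7%, 64.5% and 60.1% of them lay in that area in KO1308, KO1134 and WT1101. The 2 sides of that comparison were thus chosen differently. Of 7 plasma cell genes, only *Sdc1*, which epithelia also express, was higher (0.82 ± 0.17), a share near the 13.7% of all genes tested. *Igha* had 5259, 3846 and 790 CPM against 5516, 3092 and 1424 CPM. The summed plasma cell list ran from 1004 CPM in medulla bins of WT1101 to 6236 CPM in KO1308. Among 9 macrophage genes, the complement genes *C1qa* (0.99 ± 0.12), *C1qb* and *C1qc* and the receptor gene *Csf1r* were higher and *Cd163* was lower (-1.63 ± 0.33). Among 8 fibroblast genes, *Dcn* (0.89 ± 0.11), *Pdgfra*, *Lum* and *Dpt* were higher, while the collagen genes did not pass. Without KO1308, 2 fibroblast genes were higher. *Plvap* of fenestrated endothelium was higher (1.15 ± 0.18) and *Ly6c1* lower among 7 endothelial genes. These shares were near the 13.7% higher and 10.5% lower of all genes tested. Of 4 tested genes of high endothelial venules and lymph node stroma, 0 passed by edgeR, 1 had an unadjusted p under 0.05 and 0 passed by DESeq2. *Glycam1*, a marker of such venules, had 35.3, 73.2 and 1.204 CPM in medulla bins against 25.9, 126 and 0.0287 CPM.

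Fat genes stood at the lower end of the fit. *Ucp1*, the uncoupling protein of brown fat, had 7.30, 1.08 and 0 CPM in medulla bins against 163, 47.4 and 0.0287 CPM (-4.85 ± 0.23, adjusted p = 0.00304). *Plin1*, which coats fat droplets, had 2.69, 0.216 and 0.344 CPM against 43.3, 21.9 and 0.717 CPM (-4.44 ± 0.55). *Gpd1*, *Adrb3*, *Plin5*, *Cox7a1*, *Ucp3* and *Fasn*, with *Retnla*, *Pi16*, *Acan* and 4 little-known genes (*Gm33914*, *Gm17322*, *Gm30159* and *Gm4739*), completed the 15. In WT1101 *Gpd1* (1.55 against 1.64 CPM) and *Adrb3* (0.688 against 0.717 CPM) hardly differed. *Plin5*, like *Ucp1*, had 0 against 0.0287 CPM there. The fold changes of these genes thus came mainly from the KO sections. *Fasn* (68.5 against 93.9 CPM) and *Ucp3* (0.172 against 1.12 CPM) were lower in the medulla of WT1101 too. Of 6 adipocyte genes, *Plin1* and *Car3* were lower and 0 higher, while 6 were lower without WT1101 and 1 without either KO section. They summed to 295 against 2065 CPM in KO1308, 239 against 1320 CPM in KO1134 and 178 against 133 CPM in WT1101. With other bins restricted to the thymus area, the median adipocyte fold change moved from -3.13 to -1.197. The lower end of that comparison, named after its values were seen, kept the fat gene *Plin1* (-2.505 ± 0.57), *Gm33914*, *Gm30159*, *Gm4739*, *Gm17322* and *Retnla* as well as *Acan* (-2.28 ± 0.29) and *Pi16* (-2.21 ± 0.38) and gained the histone genes *Hist1h2ag* (-2.21 ± 0.53) and *Hist1h3a* (-2.01 ± 0.45).

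The change across the edge of the medulla was followed in steps of distance between a bin and the nearest bin of the other kind. The neighbourhood rule blurs this edge by 3 bins. The edge is set at 2 times each section's own marker share, so bins just inside it differ in marker level between sections (1498, 1504 and 314 CPM), and where a change lies relative to the edge depends on the rule. In WT1101, MHC class II genes fell from 6758 CPM more than 108 µm inside the medulla to 3313 CPM in the inner 54 µm of the edge, 2309 CPM in the first 54 µm outside and 1268 CPM beyond 432 µm. Double-positive thymocyte genes rose along the same path, from 1757 to 4610, 5622 and 5905 CPM. In KO1308 class II genes were at 8944 CPM deep inside, 7982 CPM in the inner 54 µm, 7285 CPM in the first 54 µm outside and 5374 CPM at 108 to 216 µm, and double-positive genes were at 743, 1071, 1252 and 2388 CPM in these zones. They came to 3752 CPM at 216 to 432 µm. In KO1134 class II genes were at 10274 CPM deep inside, 11515 CPM at 54 to 108 µm inside, 10432 CPM in the inner 54 µm, 7736 CPM just outside and 3776 CPM at 108 to 216 µm. Double-positive genes went from 559 CPM deep inside to 752 and 1080 CPM in the last of these zones. The double-positive level of both KO sections was below that of WT1101 in every zone.

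Other lists followed the edge in their own ways. Secretory and airway genes in WT1101 fell from 289 CPM deep inside to 32.7 CPM in the inner edge and 11.7 CPM just outside. In KO1134 they had 219, 248 and 139 CPM in these zones and 15.5 CPM at 108 to 216 µm. In KO1308 they had 625 CPM deep inside and 837 CPM at 54 to 108 µm outside, and reached 60.0 CPM only beyond 432 µm. In the B cell list *Igkc* and *Ighm* had the most UMIs in medulla bins. Its summed level was lowest deep in the medulla in all 3 sections (2492, 1819 and 928 CPM). It was highest outside the medulla, at 6251 CPM in KO1308 at 108 to 216 µm, 6013 CPM in KO1134 at 54 to 108 µm and 2563 CPM in WT1101 at 108 to 216 µm. The rule limits B cell genes in medulla windows, and the list's median log2 fold change was 0.26. The 3 B cell genes of the rule had 207, 158 and 92.0 CPM in medulla bins against 136, 234 and 32.4 CPM in other bins. Cell cycle genes rose outwards from 436 to 2045 CPM at 216 to 432 µm in KO1308 and from 649 to 2235 CPM in WT1101. In KO1134 they rose from 451 to 1084 CPM at 108 to 216 µm and had 879 CPM at 216 to 432 µm. Beyond 432 µm they had 1677, 1077 and 2644 CPM in KO1308, KO1134 and WT1101. These zones are of all kept bins, and adipocyte genes had 4902, 3202 and 116 CPM in the last of them. Within the thymus area alone, cell cycle genes had 2073, 1046 and 2235 CPM at 216 to 432 µm. Beyond 432 µm they had 2133, 1314 and 2650 CPM there.

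**Figure D3:**
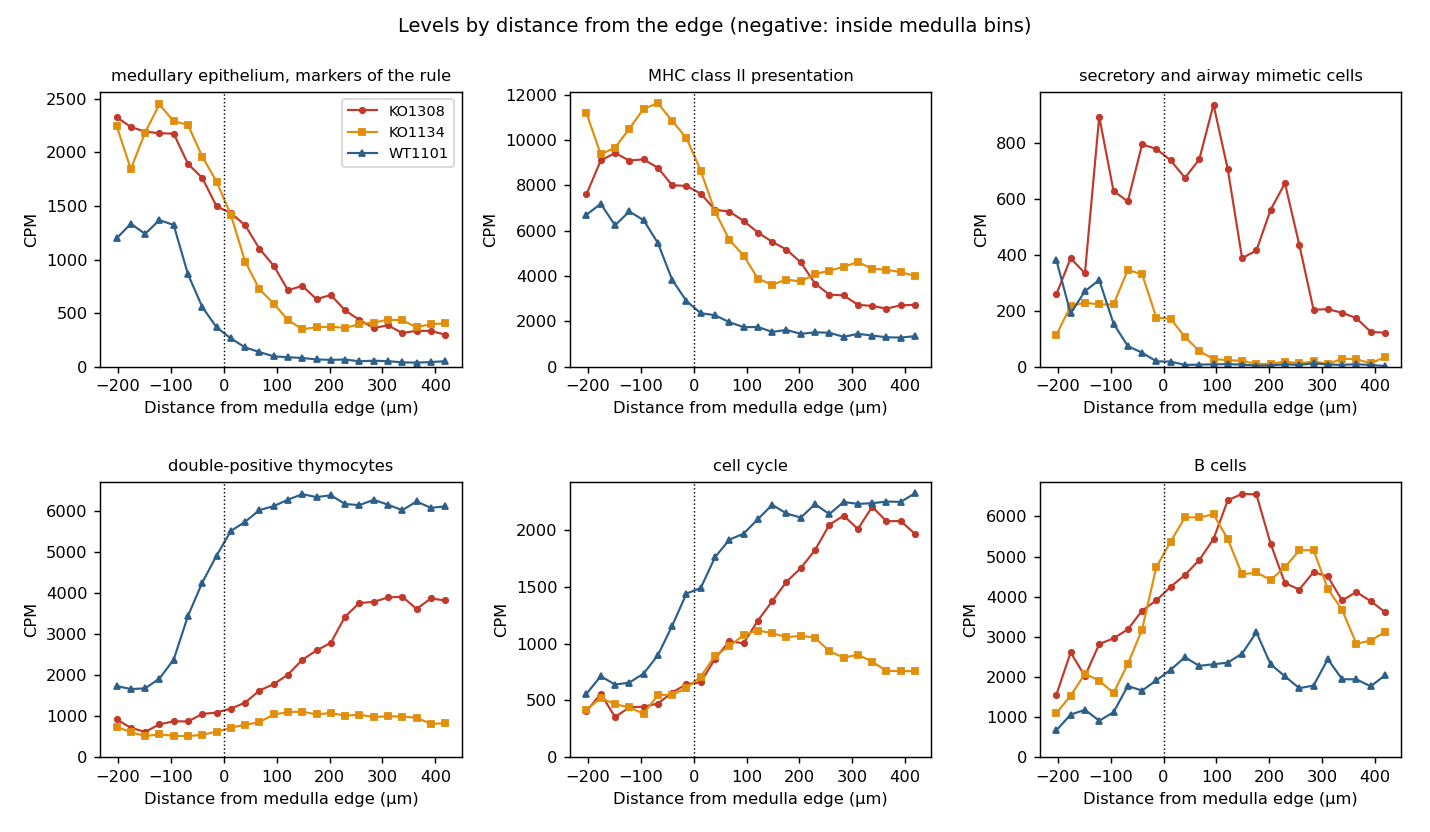
CPM of 6 gene lists by distance from the medulla edge in µm, in steps of 27 µm (negative values lie inside the medulla, and the dotted line is the edge). Circles are KO1308, squares KO1134 and triangles WT1101, 1 section each. In WT1101 the class II genes fall from 6758 to 1268 CPM and the double-positive genes rise from 1757 to 5905 CPM outwards, and in KO1308 secretory and airway genes stay high outside it, with 837 CPM at 54 to 108 µm.

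Medullary islands of 1 section differed from each other. In KO1308 the secretory and airway list ranged from 246 to 2257 CPM (median 444) over 10 islands. The highest were islands of 106 bins (2029 CPM) and 44 bins (2257 CPM), and the largest island had 511 CPM. The same 2 islands had the highest levels of cortical epithelial genes, 6165 and 5314 CPM, over a range of 1907 to 6165 CPM. The island of 44 bins also had the most plasma cell transcripts, 15157 CPM against a median of 6120 CPM. *Aire* varied from 51.7 to 305 CPM in KO1308, the 2 highest islands having 35 and 33 bins and thus few UMIs. In WT1101, the secretory list ranged from 26.6 to 219 CPM over 11 islands and *Aire* from 29.7 to 146 CPM. MHC class II genes varied less, from 5569 to 10400 CPM in KO1308 and from 3570 to 5508 CPM in WT1101. The 2 islands of KO1134 had 10634 and 10871 CPM. Double-positive genes ranged from 784 to 1435 CPM in KO1308 and from 2793 to 4817 CPM in WT1101. Islands of 1 section share a mouse and are not replicates, so these ranges do not test a difference between sections.

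**Figure D4:**
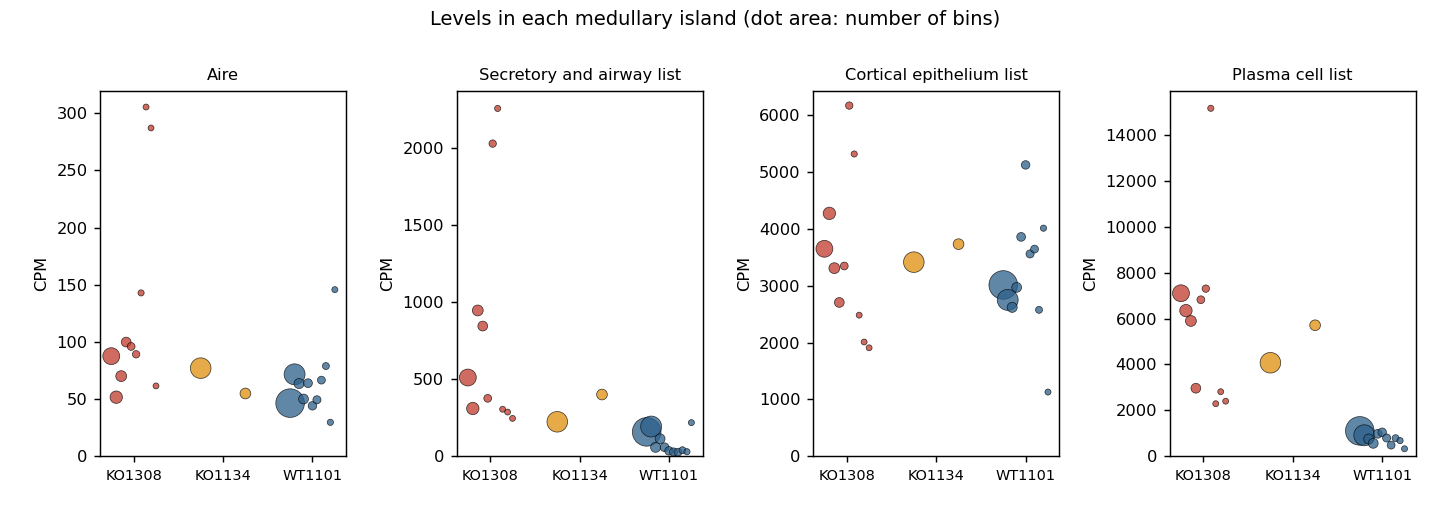
CPM in each medullary island of the 3 sections for *Aire* and for the secretory and airway, cortical epithelium and plasma cell lists. Each dot is 1 island and its area grows with the number of bins. The secretory list spans 246 to 2257 CPM in KO1308 and 26.6 to 219 CPM in WT1101.

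Medulla bins of each KO section were then set beside those of WT1101. Both comparisons share the WT section, and no test was made. The rule scales with each section's own marker share, so medulla bins were not chosen at the same marker level. Bins just inside the threshold had 1122, 688 and 5038 CPM of double-positive thymocyte genes in KO1308, KO1134 and WT1101. How far the ratios below follow from this unequal selection was not tested. Of 9795 genes with enough UMIs, 640 (6.53%) were at least 2-fold higher than WT in KO1308 and 574 (5.86%) were at or below a 2-fold decrease. In KO1134 453 genes (4.62%) were at least 2-fold higher and 662 (6.76%) at least 2-fold lower. Double-positive thymocyte genes stood at 0.299 (0.286 to 0.312) of WT in KO1308 and 0.175 (0.168 to 0.183) in KO1134, with 7 and 10 of 11 genes at least 2-fold lower. Genes of strong T cell receptor signals were at 0.369 and 0.423 of WT, 5 of 7 genes compared being at least 2-fold lower in each. In medulla bins *Egr1* had 68.0, 51.8 and 246 CPM and *Nr4a1* 20.0, 32.4 and 110 CPM in KO1308, KO1134 and WT1101. Cell cycle genes were at 0.560 and 0.546 of WT, with 3 and 5 of 8 at least 2-fold lower. The CD3 genes were at 0.517 and 0.456. In other bins the ratios to WT were 0.452 and 0.162 for double-positive genes and 0.598 and 0.551 for strong receptor signals. They were 0.687 and 0.429 there for cell cycle genes and 0.552 and 0.455 for CD3 genes. Without *Ccl21a* in the rule, the double-positive ratios of medulla bins were 0.417 and 0.201.

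Class II genes were higher than WT in both, at 1.62-fold (1.59 to 1.64) in KO1308 and 2.06-fold (2.03 to 2.09) in KO1134, with 1 and 6 of 8 genes at least 2-fold higher. In other bins the ratios were larger, at 2.62-fold and 2.84-fold. Among lists of other cell types, summed plasma cell genes were 6.21-fold and 4.38-fold WT, B cell genes 2.36-fold and 2.01-fold, and fibroblast genes 2.21-fold and 1.63-fold. Of the genes compared, 3 and 2 of 5 plasma cell and 2 and 1 of 4 B cell genes were at least 2-fold higher. The same held for 4 and 3 of 7 fibroblast genes. Median ratios by gene were 3.95 and 1.81 for plasma cells, 2.34 and 1.39 for B cells, and 2.55 and 1.28 for fibroblasts. In other bins the summed ratios were 3.93-fold and 2.18-fold for plasma cells, 2.30-fold and 2.07-fold for B cells and 2.28-fold and 2.23-fold for fibroblasts. With medulla bins taken at 3 times the section's share, the ratios of KO1134 were 2.78-fold for plasma cells and 1.35-fold for B cells. The secretory and airway list was 4.91-fold (4.52 to 5.34) WT in KO1308 and 1.82-fold (1.66 to 1.99) in KO1134, beside 47.1-fold and 4.20-fold in other bins. At 3 times the section's share, KO1308 stood at 2.65-fold (2.21 to 3.15). The other medullary epithelial genes stood at 1.19-fold (1.14 to 1.25) and 1.09-fold (1.05 to 1.14) WT, and the RANK, CD40 and lymphotoxin list at 1.28-fold and 1.12-fold. Dendritic cell genes were at 1.03-fold and 1.57-fold. All levels are shares of the same UMIs, so the ratios of thymocyte genes and of other lists are not independent of each other.

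**Figure D5:**
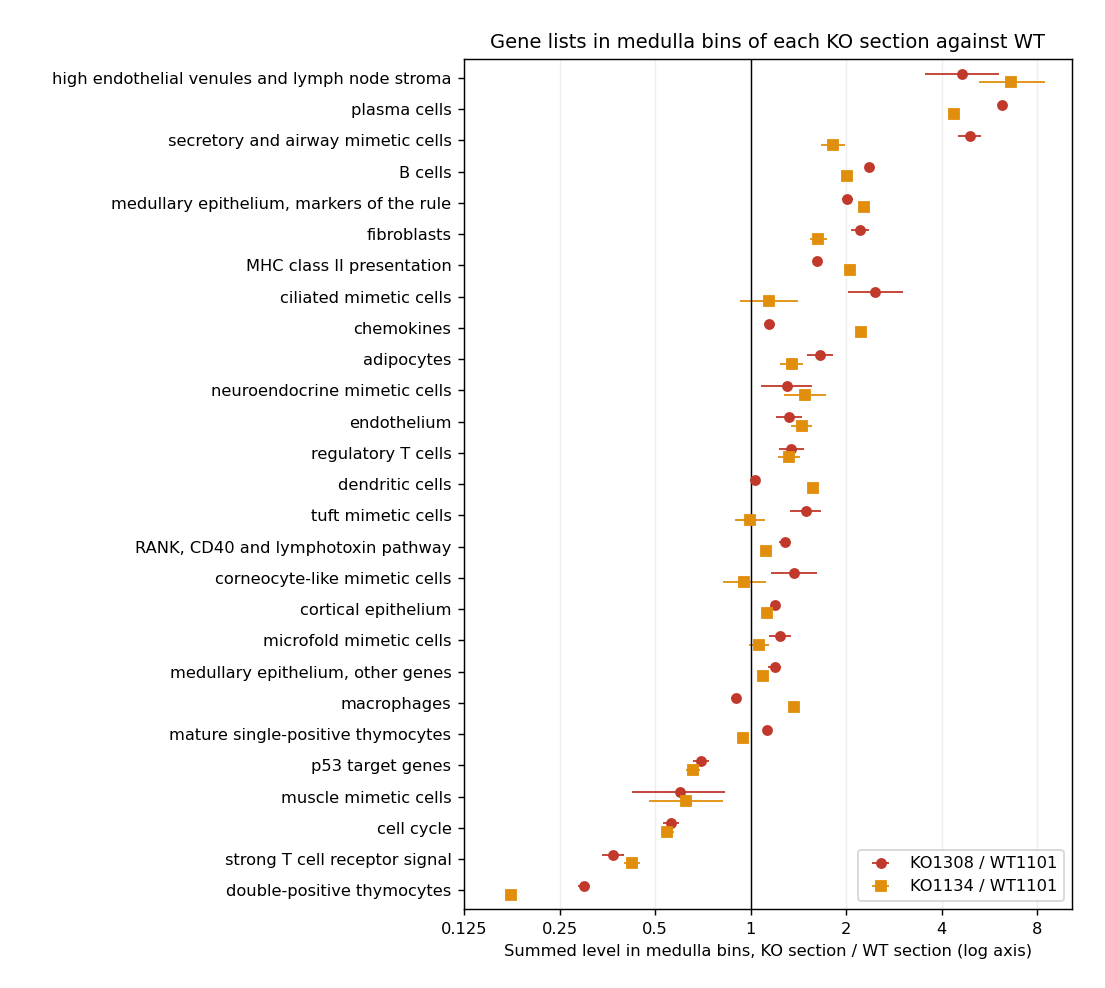
Summed level of each gene list in medulla bins of a KO section divided by that in WT1101 (log axis), with 95% counting intervals. Circles are KO1308 and squares KO1134, and both are divided by the same WT section. Double-positive thymocyte genes lie at 0.299 and 0.175 and plasma cell genes at 6.21 and 4.38.

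At the ends of these ratios, *Glycam1* had 92 UMIs in KO1308, 339 in KO1134 and 7 in WT1101, which is 29.3-fold (13.7 to 75.02) and 60.8-fold (29.2 to 152) WT. *Slpi*, a secreted protease inhibitor, had 128, 96.8 and 6.54 CPM, and the immunoglobulin gene *Ighg1* 55.3, 37.8 and 3.10 CPM. *Cxcr6*, the receptor of CXCL16, had 87.6, 75.4 and 8.43 CPM, and *Gm36283* and *Gm37004* followed. At the other end, *Cyp2c52-ps* had 0 UMIs in medulla bins of both KO sections and 510 UMIs in WT1101. *Gm6428* had 3, 2 and 283 UMIs, *Gfi1b* 3, 7 and 114 UMIs and *Tctex1d1* 5, 1 and 127 UMIs, with *Gm15340* and *BB031773* between them. These genes were also low in other bins of the KO sections, *Gfi1b* at 0.0621 and 0.152 of WT. *Cdkn2a*, which encodes the cell cycle inhibitors p16 and p19, had 54.5 CPM (45.9 to 64.3; 142 UMIs) in KO1308, 34.6 CPM (29.4 to 40.3; 160 UMIs) in KO1134 and 4.30 CPM (2.78 to 6.35; 25 UMIs) in WT1101. In other bins it had 49.6, 66.5 and 0.373 CPM, with 25 UMIs in medulla bins and 13 in other bins of WT1101.

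The p53 target genes in the KO medulla were at 0.697 (0.657 to 0.738) and 0.658 (0.627 to 0.690) of WT, with 2 of 10 genes compared at least 2-fold lower in each section. In other bins the list was at 0.640 and 0.497 of WT. *Ccng1* had 73.7, 92.4 and 148 CPM in medulla bins of KO1308, KO1134 and WT1101, *Trp53inp1* 120, 69.1 and 266 CPM, and *Cdkn1a*, the p21 gene, 14.2, 19.0 and 26.3 CPM. Between medulla and other bins, 3 of 11 tested were higher and 1 was lower, beside 13.7% higher and 10.5% lower of all genes tested. Without KO1308 1 was higher. *Cdkn1a* was higher in the medulla of all 3 sections, with 8.71, 4.79 and 8.81 CPM elsewhere (1.38 ± 0.25, adjusted p = 0.0112), as were *Perp* (0.88 ± 0.14) and *Sesn2* (0.79 ± 0.19), and *Trp53inp1* was lower (-0.61 ± 0.12).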

How the data were processed

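UMI counts per gene and spot were taken as the authors deposited them for the 3 thymus sections, in whole numbers that had not been normalised. The authors had made them from the reads by means of STAR and BSTMatrix (genome build GRCm38 per the labels). Here, counts were summed in bins of 27 µm, medulla bins were selected by the rule given above, and CPM was computed from sums over bins with exact Poisson, conditional binomial or binomial intervals. Folded areas were kept, and no doublet caller was run. Medulla and other bins of each section were summed and compared by edgeR's quasi-likelihood test (glmQLFit and glmQLFTest, TMM, filterByExpr) with the section as a block and Benjamini-Hochberg adjustment over all genes tested. DESeq2, other size factors, filters, bin widths, thresholds, windows and comparison bins, and leaving out each section, were tried as alternatives, and KO to WT ratios were recomputed without *Ccl21a* in the rule, at 3 times the section's share and after thinning. The section numbers of KO and WT mice do not pair animals.

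The medulla bins and the 27 gene lists were chosen with earlier results of these data known. Named genes are the 15 called genes at each end of the fit that moved the same way in all sections with at least 100 UMIs, the 6 at each end of the KO to WT ratios, *Cdkn2a*, *Trp53*, and list genes, mainly the 4 with most UMIs. In simulated counts with 200 changed genes, 11.5% of those changed 1.5-fold, 85.5% changed 2-fold and 100% changed 4-fold were recovered, with 0, 12 and 7 false calls. The simulation gave all genes the same dispersion (0.0243), and sparse genes were not among those changed. The fit of the real counts let dispersion differ between genes, so these rates need not hold for it or for sparse genes. Of the gene identifiers, 99.8% were found in GENCODE M21. R 4.3.3 with edgeR 4.0.16, limma 3.58.1 and DESeq2 1.42.0 and Python 3.11.15 with numpy 2.4.6, scipy 1.17.1, pandas 2.3.3 and matplotlib 3.10.9 were used.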

Additional observations from a re-analysis of the deposited data

Results flagged for a closer look

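Gene lists whose summed level moved one way from other bins to medulla bins in both KO sections and the opposite way in WT1101 were noted; the difference between genotypes was not tested. The other medullary epithelial genes stood at 1.25 and 2.10 times the level of other bins in KO1308 and KO1134 and at 0.93 in WT1101. *Ly6d*, which is abundant outside the WT medulla, had 307 CPM in WT medulla bins and 636 CPM in other bins there. The cortical epithelium list stood at 1.03 and 1.04 in the KO sections and at 0.81 in WT1101. The adipocyte list stood at 0.143 and 0.181 in the KO sections and at 1.34 in WT1101.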

How the results depend on the processing

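With the section left out as a block, edgeR called 0 genes higher and 0 lower, although 2183 had an unadjusted p under 0.05, and DESeq2 with the block called 2301 higher and 2018 lower. No call turned its direction under any alternative run. Leaving out each section in turn gave 1322 to 2272 genes higher and 533 to 1881 lower. Without the filter on low counts 3960 genes were lower and 41.5% of calls were higher, against 56.6%, and at 3 times the section's share 1246 were lower. The cause of these differences was not tested. The median log2 fold change of B cells ranged from -0.41 to 0.74 when each section was left out and was 0.91 against other bins of the thymus area, and that of endothelium was -0.072 without *Ccl21a* in the rule. The share of medulla bins depended on the rule. It became 18.2% in KO1134 and 20.8% in WT1101 without *Ccl21a*, which kept 68.1% of the medulla bins of KO1308. At 1.5 times the section's share it was 27.8% in KO1308, 20.4% in KO1134 and 26.1% in WT1101, and at 3 times 1.99%, 5.79% and 16.2%. Bins of 20 µm gave 16.3%, 15.8% and 18.0%, bins of 50 µm gave 12.4% in KO1308 and 23.4% in WT1101, and bins over tissue gave 15.99% in KO1308. Sparse transcripts were seen in few bins. After thinning to 500 UMIs *Aire* was found in at most 4.16% of the medulla bins of a section, and without thinning in at most 13.7%.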
